A study of Mus musculus with 24 samples.

Results

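Skeletal muscle is built by a small set of regulators that act one after another, and 10 of them were followed here through the dental mesenchyme of the mouse first mandibular molar. They are the progenitor factors Pax3 and Pax7, the determination factors Myf5, Myod1 and Myf6, their cofactor Vgll2, the differentiation factors Myog and Mef2c, and the fusion proteins Mymk and Mymx. The members were chosen by name from the 56748 genes of the count table, and all 10 were found by identifier. The RNA-seq data held 24 libraries in 8 groups of 3, from wild-type ICR mice at the cap stage (embryonic day 13) and the bell stage (embryonic day 15). Cap-W and Bell-W were undivided mesenchyme. Cap-L and Bell-L were lingual parts, Cap-B and Bell-B were buccal parts, and the cap-stage parts kept in culture for 2 days were Cap-L+2D (lingual) and Cap-B+2D (buccal). No group carried a transgene or a drug treatment, each tooth germ was split with a fine needle, and dispase II was used to take the mesenchyme away from the epithelium. A source that ties a library to a single animal was not found, so p-values measure only the spread between these libraries, which may be technical.

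As background, Myf5, Myod1, Myf6 and Myog are basic helix-loop-helix proteins that pair with E proteins and bind the E-box. Myf5 and Myod1 commit a cell to the muscle lineage, and Myog then drives myoblasts to leave the cell cycle and differentiate. Mef2c works with these factors on muscle genes and is also used in heart, endothelium and neural crest. Pax7 marks myogenic progenitors and later satellite cells, whereas Pax3 marks progenitors of trunk and limb muscle and also neural crest, and the jaw muscles form without it. Vgll2 binds TEAD factors, and Mymk (myomaker) and Mymx (myomixer) are the membrane proteins that let myoblasts merge into fibres. Dental mesenchyme itself comes from neural crest and is not a muscle tissue, while the jaw muscles lie close to the lower molars.

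Promoter sequences are shown for Myog, Myf5 and Pax7, because these 3 genes stand for the differentiation, determination and progenitor steps and were each called higher on the buccal side in every comparison of the sides described below. The RefSeq table (GRCm38.p6) held promoters for 5 of the 10 members, namely Pax7, Myf5, Myog, Mef2c and Vgll2, and the 250 bases before each start site are printed 5′ to 3′ on the gene's strand. Capitals mark E-boxes (CANNTG, which reads the same on both strands) and cores of the MEF2 element (TA, then 4 bases that are each A or T, then TA, on both strands).
Myog, chr1:134289754-134290003, plus strand: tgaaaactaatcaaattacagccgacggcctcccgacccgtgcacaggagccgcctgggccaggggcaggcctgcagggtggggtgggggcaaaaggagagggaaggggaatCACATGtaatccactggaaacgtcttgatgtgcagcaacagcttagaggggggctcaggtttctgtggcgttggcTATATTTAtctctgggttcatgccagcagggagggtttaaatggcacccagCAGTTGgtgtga
Myf5, chr10:107486135-107486384, minus strand: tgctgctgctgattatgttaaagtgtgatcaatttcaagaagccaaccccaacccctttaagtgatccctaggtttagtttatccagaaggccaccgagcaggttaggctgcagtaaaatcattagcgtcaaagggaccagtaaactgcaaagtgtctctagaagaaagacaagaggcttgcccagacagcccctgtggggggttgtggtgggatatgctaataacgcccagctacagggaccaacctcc
Pax7, chr4:139832969-139833218, minus strand: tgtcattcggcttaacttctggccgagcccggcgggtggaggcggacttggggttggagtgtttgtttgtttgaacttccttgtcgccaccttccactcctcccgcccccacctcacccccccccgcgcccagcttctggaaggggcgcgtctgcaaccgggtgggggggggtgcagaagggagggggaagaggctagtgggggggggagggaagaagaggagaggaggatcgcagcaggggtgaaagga
The Myog promoter held 2 E-boxes, beginning 138 and 12 bases before the start, and a MEF2 core that began 63 bases before it and overlapped neither. At least 1 E-box was present in 66.2% of the 32851 promoters of the same length, at least 2 in 31.8%, and a MEF2 core in 8.56%. An E-box together with a MEF2 core was found in 5.88%. The letters of neither motif occurred in the windows of Myf5 and Pax7. Among the member promoters not printed, 1 of Mef2c also held 2 E-boxes, beginning 234 and 100 bases before the start, and a MEF2 core at 145. Another Mef2c promoter and the Vgll2 promoter each held 1 E-box and no MEF2 core, and the remaining Mef2c promoter held neither motif. The full 10-base MEF2 element, present in 2.92% of promoters, occurred in none of the member promoters, and the core was chosen after this was seen. A match is a description of the letters and was not tested as a binding site.

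Counts per library totalled 20581720 to 39266497, with a median of 27677163, and a floor of 3 counts corresponded to 0.0764 to 0.146 CPM (counts per 1000000 counts of the library). Levels below are CPM after TMM scaling over all libraries, and floors and intervals cover counting error only. All 11 dental mesenchyme markers, Msx1, Pax9 and Barx1 among them, were detected in every library. 2 libraries stood apart: in Cap-W replicate 1 the gene Rn18s-rs5 took 5.39% of the counts, and in Bell-W replicate 3 the summed level of 8 epithelial markers was 2099 CPM against a median of 573 CPM in that group. The results that rest on them are those of the undivided mesenchyme. In bulk samples, fewer cells of a type and less RNA per cell cannot be told apart.

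Over the 8 groups, 7 of the members followed a common order: Pax7, Myf5, Myod1, Myog, Mymk, Mymx and Vgll2 were highest in Cap-B+2D and next highest in Bell-B, and their levels in these 2 groups did not overlap. Myf6 was highest in Bell-B, Pax3 in Cap-L+2D and Mef2c in Cap-B+2D. Per kilobase of exon, which allows genes to be compared, the level in Cap-B+2D was 197 ± 5.3 CPM per kb for Myog (SD, n = 3 here and below). It was 57.6 ± 2.3 for Myod1, 52.1 ± 2.4 for Mymk and 21.1 ± 0.81 for Mymx on the same scale. Mef2c came next at 14.6 ± 0.48, followed by Myf5 at 9.38 ± 0.22, Vgll2 at 7.20 ± 0.73, Pax7 at 6.03 ± 0.075 and Pax3 at 2.78 ± 0.19 CPM per kb. Myog and the RNAs of both fusion proteins were thus above those of both progenitor factors in that group.

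**Figure D1:**
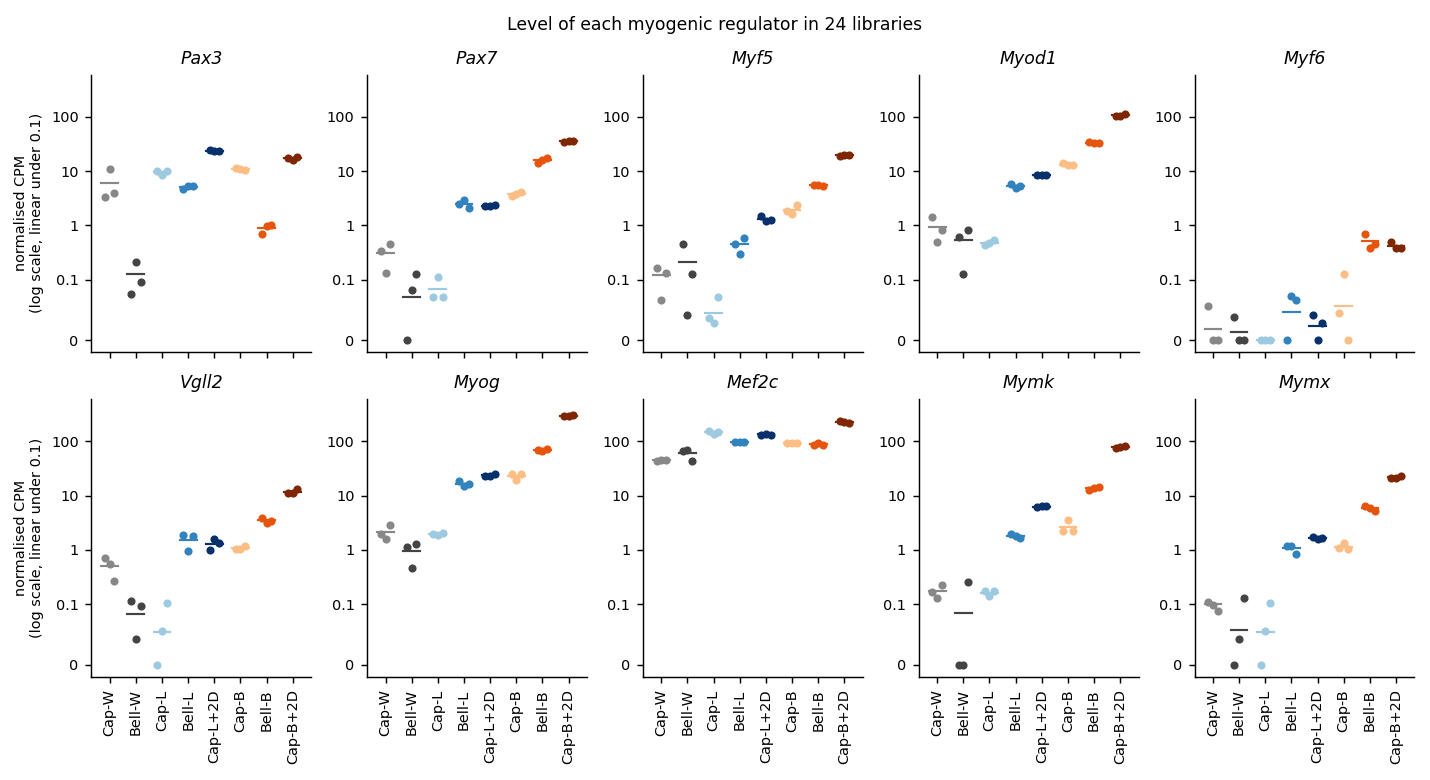
Level of each member in every library, in normalised CPM on an axis that is logarithmic above 0.1 and linear below it. Points are libraries and horizontal lines are group means of 3 libraries. Myog reached 290 to 303 CPM in Cap-B+2D and stayed between 1.92 and 2.01 CPM in Cap-L, whereas Mef2c lay above 40 CPM in every library.

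The first comparison asked whether the sides of the tooth germ differed at the cap stage. The buccal part held more RNA of 7 members than the lingual part, among them Pax7, Myod1, Myog and Mymk, less of Mef2c, and a level of Pax3 for which the test gave no call. A gene was called where edgeR's quasi-likelihood test gave an adjusted p (Benjamini-Hochberg, over all genes tested) under 0.05 and a log2 fold change beyond 0.5 in either direction. Of the 9 members tested, 7 were called higher and 1 lower in Cap-B, against 10.4% of 20653 genes called higher and 7.10% called lower. Pax7, Myf5, Mymk, Mymx and Vgll2 had at most 5 counts in any Cap-L library and passed the filter on low counts through Cap-B, so their calls do not support the share.

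Myod1, the determination factor with the most counts, had 0.429, 0.473 and 0.530 CPM in the 3 Cap-L libraries and 14.1, 12.7 and 12.8 CPM in the 3 Cap-B libraries. The groups did not overlap, and the log2 fold change was 4.80 (SE 0.14, adjusted p = 4.39e-15). Myog was at 1.93, 1.92 and 2.01 CPM in Cap-L and at 24.8, 19.6 and 24.8 CPM in Cap-B, with a log2 fold change of 3.58 (SE 0.11, adjusted p = 1.64e-14). Both genes were thus more than 10 times higher on the buccal side, and the lingual libraries stayed close together. Pax7 had 78, 89 and 105 counts in Cap-B and 2, 4 and 2 in Cap-L, a ratio of 43.7 with an exact 95% counting interval of 21.9 to 102. Myf5 had 40, 39 and 62 counts in Cap-B and 1, 1 and 2 in Cap-L, a ratio of 45.3 with an interval of 17.3 to 169. Such ratios rest on a handful of lingual reads, and their intervals are wide.

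The fusion genes were already present on the buccal side at the cap stage. Mymk stood at 2.26, 3.51 and 2.26 CPM in Cap-B and 0.179, 0.139 and 0.177 CPM in Cap-L, from 5 counts in each Cap-L library. Its ratio was 16.5 with a counting interval of 9.73 to 30.0. Mymx had 24, 32 and 27 counts in Cap-B and 0, 2 and 3 in Cap-L, a ratio of 21.3 with an interval of 8.78 to 67.4. Vgll2 had 23, 25 and 30 counts against 0, 2 and 3, a ratio of 20.0 with an interval of 8.23 to 63.5. Mymk, Mymx and Vgll2 passed the filter on low counts through Cap-B. That their libraries did not overlap between the sides is therefore no further support. Myf6 had 1, 3 and 0 counts in Cap-B and 0 in each Cap-L library, was not tested, and was not detectable as different at this depth.

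Mef2c and Pax3 did not share this pattern. Mef2c was at 153, 136 and 152 CPM in Cap-L and 95.4, 94.0 and 94.6 CPM in Cap-B, and its log2 fold change was -0.61 (SE 0.05, adjusted p = 1.60e-08). Mef2c was the only member called lower on the buccal side at this stage. Pax3 was at 10.2, 8.49 and 9.92 CPM in Cap-L and 11.3, 10.9 and 10.5 CPM in Cap-B, with a log2 fold change of 0.22 (SE 0.09, adjusted p = 0.0514). The Pax3 libraries did not overlap between the sides, but the difference was small and did not pass the threshold.

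At the bell stage the same sides were compared again. Pax7, Myf5, Myf6, Myod1, Myog, Mymk, Mymx and Vgll2 were higher in Bell-B than in Bell-L, and Pax3 was lower. Of 10 members tested, 8 were called higher and 1 lower, against 6.00% of 21181 genes called higher and 6.88% called lower. Myf5, with 8 to 18 counts in each Bell-L library, and Myf6, with 0 to 2, passed the filter on low counts through Bell-B. Their calls do not support the share. Myod1 was at 33.9, 33.4 and 33.0 CPM in Bell-B and 5.71, 4.85 and 5.38 CPM in Bell-L, a log2 fold change of 2.66 (SE 0.07, adjusted p = 2.58e-30). Myog was at 68.1, 66.1 and 71.1 CPM in Bell-B and 18.3, 14.8 and 16.2 CPM in Bell-L, a log2 fold change of 2.06 (SE 0.05, adjusted p = 1.75e-30). Both genes were separated by side in every library. Pax7 was at 14.3, 15.8 and 17.5 CPM in Bell-B and 2.43, 2.92 and 2.13 CPM in Bell-L, a log2 fold change of 2.68 (SE 0.11, adjusted p = 6.08e-24). Mymk differed by a log2 fold change of 2.93 (SE 0.11), Mymx by 2.47 (SE 0.16), Myf5 by 3.59 (SE 0.19) and Vgll2 by 1.17 (SE 0.17). Vgll2 had the smallest called difference among the members higher on the buccal side.

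Pax3 turned to the lingual side at the bell stage. Its level was 4.75, 5.21 and 5.22 CPM in Bell-L and 0.689, 0.960 and 1.03 CPM in Bell-B, a log2 fold change of -2.50 (SE 0.16, adjusted p = 8.18e-17). Myf6 had 21, 11 and 14 counts in Bell-B against 0, 2 and 2 in Bell-L. That is a ratio of 10.9 with an interval of 3.96 to 41.5, and Myf6 passed the filter only through Bell-B. Mef2c was at 97.5, 98.5 and 96.5 CPM in Bell-L and 87.3, 92.4 and 86.4 CPM in Bell-B, a log2 fold change of -0.14 (SE 0.03, adjusted p = 0.00175) that was under the fold limit.

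After 2 days of culture the sides differed by nearly the same factor for most members. Of 10 members tested, 9 were called higher in Cap-B+2D than in Cap-L+2D and 0 lower, against 12.5% of 21195 genes called higher and 12.5% called lower. Myf6 passed the filter only through Cap-B+2D, so its call does not support the share. At an unadjusted p under 0.05 and with no limit on the fold, edgeR put 1 member lower, Pax3, and DESeq2 called 0 lower. The log2 fold changes of Pax7, Myf5, Myod1, Myog, Mymk and Mymx lay between 3.63 and 3.92, a narrower range than their 3.58 to 5.40 at the cap stage or 2.06 to 3.59 at the bell stage. After culture Vgll2 lay below the range of these members, at 3.15 (SE 0.13), and Myf6 above it, at 4.00 (SE 0.63). The upper end of the cap-stage range came from Pax7 and Myf5, with 1 to 4 counts in each Cap-L library, and is uncertain. Myog was at 289.8, 289.5 and 303 CPM in Cap-B+2D and 22.9, 22.8 and 25.04 CPM in Cap-L+2D, with a log2 fold change of 3.63 (SE 0.05, adjusted p = 7.89e-27). Mymk was at 74.7, 80.1 and 81.3 CPM in Cap-B+2D and 6.20, 6.42 and 6.33 CPM in Cap-L+2D, with a log2 fold change of 3.63 (SE 0.06, adjusted p = 9.73e-25). The progenitor factor Pax7 differed as much as these late genes, by 3.92 (SE 0.08, adjusted p = 3.73e-23) on the log2 scale. Myf6 had 18, 11 and 12 counts in Cap-B+2D and 1, 0 and 1 in Cap-L+2D, a ratio of 18.9 with an interval of 4.90 to 161.

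Mef2c changed side in culture: it was at 234, 232 and 220.1 CPM in Cap-B+2D and 133, 138 and 133 CPM in Cap-L+2D, a log2 fold change of 0.76 (SE 0.04, adjusted p = 6.50e-15). The groups did not overlap, and the order of the sides was opposite to that at the cap stage. Pax3 was at 17.8, 15.8 and 17.9 CPM in Cap-B+2D and 24.0, 23.9 and 23.0 CPM in Cap-L+2D, and its log2 fold change of -0.46 (SE 0.06, adjusted p = 5.95e-07) was under the fold limit.

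**Figure D2:**
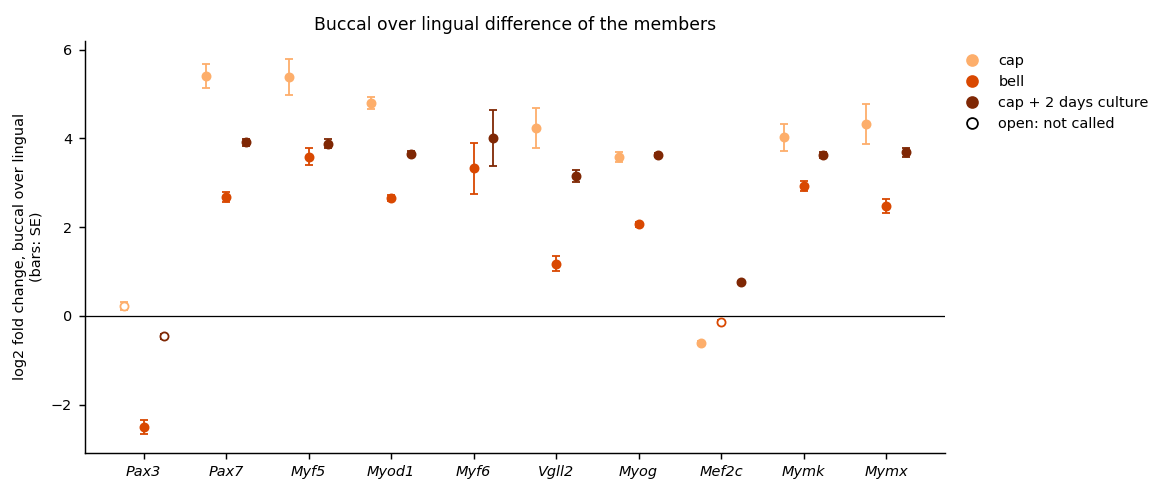
Log2 fold change of each member, buccal over lingual, at the cap stage, at the bell stage and after 2 days of culture of the cap-stage parts. Points are edgeR estimates from 3 against 3 libraries, bars are SE, open points were not called and Myf6 was not tested at the cap stage. Except for Pax3 and Mef2c, every point shown lies above 0, and Pax3 reaches -2.50 at the bell stage.

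The change of the side difference was tested as an interaction. From cap to bell, the buccal over lingual log2 fold change went down for 8 members and up for Mef2c, against 14.5% of 21931 genes with an interaction above 0 and 18.0% below 0 at an adjusted p under 0.05. Pax7, Myf5, Mymk, Mymx and Vgll2 had 0 to 5 counts in each Cap-L library and entered the test through the other groups, so their calls do not support the share. The difference was -2.73 (SE 0.18) for Pax3, -2.15 (SE 0.19) for Myod1 and 0.47 (SE 0.06) for Mef2c. Pax7 had a fitted value of -2.73 (SE 0.40) that rests on 2, 4 and 2 counts in Cap-L. The Myf5 value of -1.80 (SE 0.61) lost its call without Bell-L replicate 3 (adjusted p = 0.0799), Cap-L replicate 1 (0.0675) or Cap-L replicate 2 (0.104). The Mymk value of -1.11 (SE 0.38) lost it without Cap-B replicate 2 (adjusted p = 0.0766) or Cap-L replicate 2 (0.0943), and the Mymx value of -1.87 (SE 0.58) without Cap-L replicate 1 (0.0734). Across culture, 4 members (Pax3, Pax7, Myf5 and Myod1) had an interaction below 0 and 1, Mef2c, above 0, against 19.5% and 16.0% of 22098 genes, and the calls of Pax7 and Myf5 carry the same limit. Mef2c stood at 1.37 (SE 0.06, adjusted p = 3.72e-17). The Myf5 call was lost without Cap-L replicate 1 (adjusted p = 0.0892), Cap-L replicate 2 (0.142) or Cap-B replicate 3 (0.0757). Myog had an interaction of 0.04 (SE 0.15, adjusted p = 0.855), so a change of its side difference across culture was not detected.

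The next comparisons asked how each side changed from cap to bell. In the lingual part, 7 of 9 members tested were called higher in Bell-L than in Cap-L and 2, Pax3 and Mef2c, lower, against 14.2% of 21425 genes called higher and 5.78% lower. Pax7, Myf5, Mymk, Mymx and Vgll2 had at most 5 counts in any Cap-L library and passed the filter through the other lingual groups, so their calls do not support the share. Myog rose from 1.92 to 2.01 CPM in Cap-L to 14.8 to 18.3 CPM in Bell-L, a log2 fold change of 3.08 (SE 0.11, adjusted p = 8.78e-18). Myod1 rose by a log2 fold change of 3.47 (SE 0.17, adjusted p = 4.49e-15). Mymk had 51, 50 and 50 counts in Bell-L and 5 in each Cap-L library, a ratio of 11.1 with a counting interval of 6.51 to 20.3. Pax3 fell from 8.49 to 10.2 CPM to 4.75 to 5.22 CPM, a log2 fold change of -0.90 (SE 0.09, adjusted p = 1.46e-08). Mef2c fell too, with a log2 fold change of -0.59 (SE 0.05, adjusted p = 1.19e-10). Of 9 macrophage markers, 9 were called higher in Bell-L than in Cap-L, with summed levels of 373 to 379 CPM and 88.2 to 92.7 CPM, and 6 of 7 erythroid markers were too. Their part in the members' results was not tested.

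In the buccal part, 8 of 10 members were called higher in Bell-B than in Cap-B and 1, Pax3, lower, against 12.0% of 21992 genes called higher and 6.73% lower. Among the fusion genes Mymk rose by a log2 fold change of 2.35 (SE 0.11) and Mymx by 2.34 (SE 0.15), and among the determination factors Myod1 rose by 1.33 (SE 0.06) and Myf5 by 1.47 (SE 0.13). Myog stood at 1.56 (SE 0.06), and Pax7 rose by 2.06 (SE 0.09). Differences between genes in these values were not tested. The third determination factor, Myf6, was called at 3.11 (SE 0.57, adjusted p = 3.14e-05), but it had 1, 3 and 0 counts in Cap-B and passed the filter through the other buccal groups, so its call does not support the share. Of 9 macrophage markers, 9 were called higher in Bell-B than in Cap-B (194 to 199 CPM against 94.7 to 99.1 CPM), and 5 of 7 erythroid markers were too. Their part in the members' results was not tested. Pax3 fell from 10.5 to 11.3 CPM in Cap-B to 0.689 to 1.03 CPM in Bell-B, a log2 fold change of -3.62 (SE 0.13, adjusted p = 2.91e-21). Mef2c had a log2 fold change of -0.10 (SE 0.04, adjusted p = 0.0229), under the fold limit.

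Culture of the cap-stage parts raised most members on both sides. In the buccal part all 10 members tested were called higher in Cap-B+2D than in Cap-B and 0 lower, against 17.9% of genes called higher and 16.6% lower. Myf6, with 1, 3 and 0 counts in Cap-B, passed the filter through the other buccal groups, and its call does not support the share. At an unadjusted p under 0.05, edgeR also put 0 members lower, and DESeq2 called 0 lower. Mymk rose by a log2 fold change of 4.86 (SE 0.08, adjusted p = 5.62e-31), Mymx by 4.21 (SE 0.12) and Myog by 3.65 (SE 0.05, adjusted p = 1.98e-33). Pax7 rose by 3.20 (SE 0.08), Myf5 by 3.29 (SE 0.10), Myod1 by 3.00 (SE 0.05), Vgll2 by 3.42 (SE 0.14) and Mef2c by 1.25 (SE 0.04). Pax3 rose least, by 0.64 (SE 0.07, adjusted p = 4.08e-09). In the lingual part 8 of 9 members tested were called higher in Cap-L+2D than in Cap-L and 0 lower, against 19.6% of genes called higher and 15.9% lower. The calls of Pax7, Myf5, Mymk, Mymx and Vgll2 again rest on at most 5 counts in any Cap-L library and do not support the share. Mymk had 151, 183 and 229 counts in Cap-L+2D and 5 in each Cap-L library, a ratio of 38.9 with a counting interval of 23.4 to 69.9. Myod1 rose by a log2 fold change of 4.14 (SE 0.15), Myog by 3.60 (SE 0.10) and Pax3 by 1.32 (SE 0.07). Mef2c alone was not called, at -0.12 (SE 0.05, adjusted p = 0.0238), and its libraries overlapped. Mef2c was also the 1 member below 0 at an unadjusted p under 0.05 in edgeR, and DESeq2 called 0 lower. Macrophage markers were called higher after culture for 8 of 9 genes in the lingual part and 7 of 9 in the buccal part, and all 7 erythroid markers were called lower on both sides. Their part in the members' results was not tested.

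Set against the bell stage, the cultured lingual part held more Pax3, Myf5, Myod1, Myog, Mymk and Mymx. Of 9 members tested, 6 were called higher in Cap-L+2D than in Bell-L and 0 lower, against 14.4% and 16.8% of genes. Myf5, with 8 to 18 counts in each Bell-L library, passed the filter on low counts through Cap-L+2D, so its call does not support the share. At an unadjusted p under 0.05, edgeR put 0 members lower, and DESeq2 called 0. Pax3 was higher by a log2 fold change of 2.22 (SE 0.08, adjusted p = 2.72e-17) and Mymk by 1.81 (SE 0.13, adjusted p = 5.66e-12). Pax7 was at -0.10 (SE 0.16, adjusted p = 0.605) and Vgll2 at -0.24 (SE 0.25, adjusted p = 0.417), and both overlapped. Myog, at 0.52 (SE 0.07), went under the fold limit without Bell-L replicate 2 (0.45) or Cap-L+2D replicate 3 (0.48). Mymx, at 0.65 (SE 0.22), lost its call without Bell-L replicate 3 (adjusted p = 0.0909).

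In the buccal part, 9 of 10 members were called higher in Cap-B+2D than in Bell-B and 0 lower, against 15.5% and 16.3% of genes. DESeq2 called 0 lower, and edgeR put 0 lower at an unadjusted p under 0.05. Pax3 had the largest value, with 17.8, 15.8 and 17.9 CPM against 0.689, 0.960 and 1.03 CPM and a log2 fold change of 4.26 (SE 0.12, adjusted p = 3.65e-25). Mymk was higher by 2.51 (SE 0.06), Myog by 2.09 (SE 0.04), Mymx by 1.87 (SE 0.08), Myf5 by 1.82 (SE 0.08), Myod1 by 1.67 (SE 0.04) and Pax7 by 1.14 (SE 0.06). Myf6 was the exception, with 18, 11 and 12 counts against 21, 11 and 14, a ratio of 0.818 with an interval of 0.524 to 1.27, and a log2 fold change of -0.30 (SE 0.33, adjusted p = 0.446). The Myf6 groups overlapped, and its level was within the counting error of both.

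**Figure D3:**
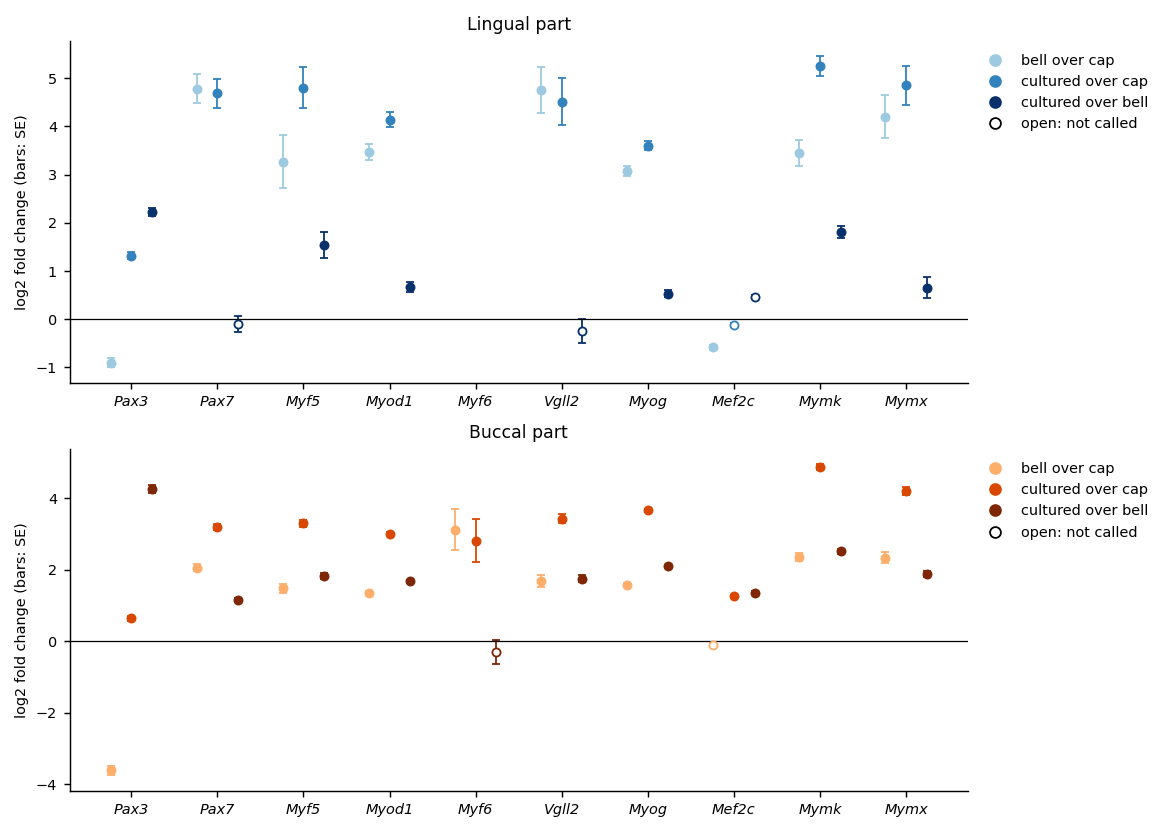
Log2 fold changes within the lingual part (upper panel) and the buccal part (lower panel) for bell over cap, cultured over cap and cultured over bell. Points are edgeR estimates, bars are SE, open points were not called and Myf6 was not tested in the lingual part. Pax3 and Mef2c lie below 0 from cap to bell in both panels, and Pax3 is called higher in culture in every comparison shown, at 4.26 over the bell stage on the buccal side.

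The balance between members was read within each library, where the scaling between libraries cancels. The ratio of Mymk to Myod1 set a fusion gene against the factor that commits cells, in counts per kb with 0.5 counts added. Its mean log2 value was -2.02 ± 0.42 in Cap-B, -0.98 ± 0.10 in Bell-B and -0.15 ± 0.06 in Cap-B+2D. The 3 buccal groups did not overlap: the ratio was 1.04 higher at the bell stage and 1.88 higher after culture than at the cap stage (exact permutation p = 0.1 for each, the smallest that 3 against 3 can give). In the lingual part it was -1.24 ± 0.14 in Bell-L and -0.12 ± 0.03 in Cap-L+2D, which did not overlap (difference 1.13, exact permutation p = 0.1). After culture the sides had overlapping ratios, with a difference of -0.03 (exact permutation p = 0.5).

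The ratio of Pax7 to Myf5, a progenitor gene against a determination gene, was highest at the bell stage. It was 0.03 ± 0.18 on the log2 scale in Bell-B, against -0.53 ± 0.21 in Cap-B and -0.64 ± 0.02 in Cap-B+2D, and Bell-B overlapped neither (exact permutation p = 0.1 for each). After culture the sides overlapped, at -0.69 ± 0.15 in Cap-L+2D and -0.64 ± 0.02 in Cap-B+2D (exact permutation p = 0.9). In Bell-L it was 0.98 ± 0.73, from 8 to 18 Myf5 counts per library. The ratio of Myog to Myf5 was 4.04 ± 0.21 in Cap-B and 4.11 ± 0.09 in Bell-B, which overlapped (exact permutation p = 0.7), and 4.39 ± 0.03 in Cap-B+2D. Over 3 ratios and 10 comparisons, 30 such tests were run, and with a smallest p of 0.1 none could pass 0.05 before or after adjustment. In Cap-L, Cap-W and Bell-W a gene of each ratio had 5 or fewer counts in at least 1 library, and the ratios of these groups are not read.

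**Figure D4:**
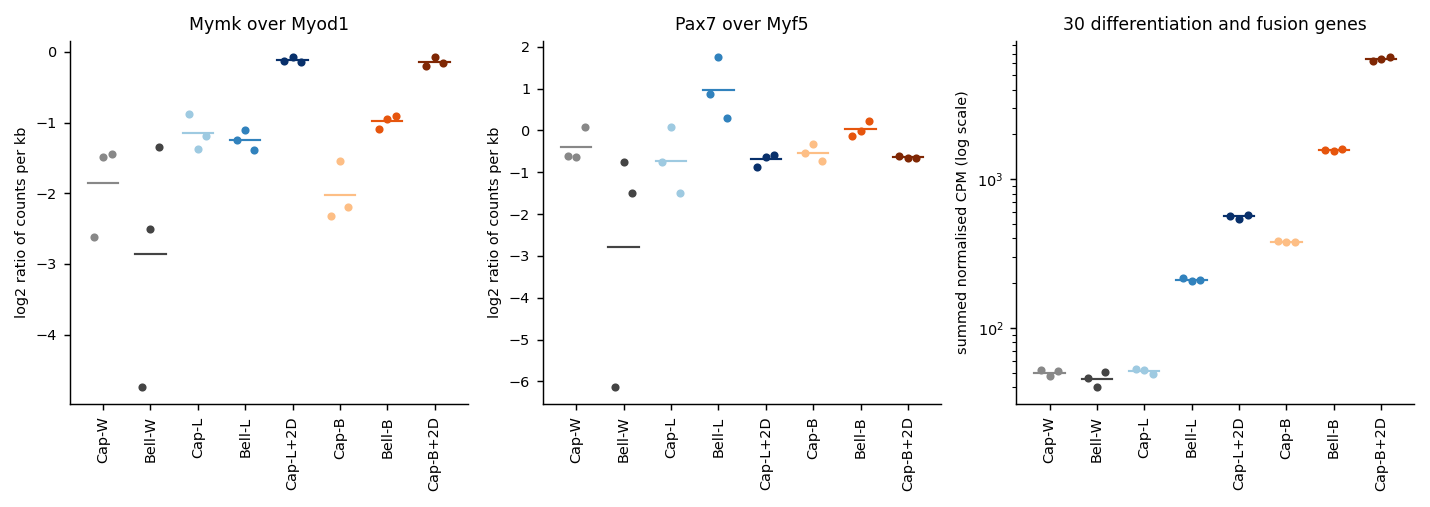
Log2 ratio of Mymk to Myod1 (left) and of Pax7 to Myf5 (middle), from counts per kb, and summed normalised CPM of 30 muscle differentiation and fusion genes on a log axis (right). Points are libraries and lines are group means of 3 libraries. Points of Cap-L, Cap-W and Bell-W in the left and middle panels rest on few counts. In the left panel both cultured groups sit near 0, and in the right panel Cap-B+2D lies between 6240 and 6608 CPM while Cap-L does not exceed 52.8 CPM.

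At the cap stage the mean level of 8 members in the undivided mesenchyme lay between those of its parts, while Pax3 and Mef2c were higher in both parts, and at the bell stage all 10 members were higher in both parts. Myog was at 1.95, 1.61 and 2.86 CPM in Cap-W, close to Cap-L, and at 1.12, 0.460 and 1.29 CPM in Bell-W, below every bell-stage part. The mean level of Myog was 17.2 times that of Bell-W in Bell-L and 71.6 times in Bell-B. For Myod1 these values were 10.1 and 63.5, and for Mef2c 1.61 and 1.47. Differences between undivided and divided groups were not tested. Pax3 was at 3.28, 10.8 and 3.89 CPM in Cap-W and at 0.0769, 0.209 and 0.0969 CPM in Bell-W.

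Between the undivided groups, 0 of 4 members tested (Pax3, Myod1, Myog and Mef2c) were called higher in Bell-W and 1 lower, against 10.3% of 20940 genes called higher and 4.21% lower. Pax3 had a log2 fold change of -5.56 (SE 0.67, adjusted p = 0.00188). Its counts were 59, 327 and 87 in Cap-W and 2, 5 and 3 in Bell-W. That is a ratio of 0.0185 with a counting interval of 0.00881 to 0.0343. Pax3 passed the filter on low counts through Cap-W, so its call does not support the share. The call was kept by edgeR without each of the 6 libraries in turn, from -6.04 to -4.79, which carries the same limit. Without Bell-W replicate 3, Mef2c was also called, at 0.59 (adjusted p = 0.0113). Without Cap-W replicate 3, Vgll2 passed the filter and was called lower, at -2.83 (adjusted p = 0.0427). Myog was at -1.16 (SE 0.45, adjusted p = 0.129). At an unadjusted p under 0.05, edgeR put 0 members higher, and DESeq2 called 0 higher. Each of Pax7, Myf5, Myf6, Mymk, Mymx and Vgll2 had at most 17 counts in any undivided library and was under the filter. The summed level of 9 macrophage markers was 38.8 to 50.3 CPM in Cap-W and 236 to 245 CPM in Bell-W, with 9 of 9 called higher. Of 8 endothelial markers 7 were called higher in Bell-W, and of 7 erythroid markers 6 were called higher and 1 lower. The part of these cells in these results was not tested.

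Genes that work downstream of the members were counted from a list of 30 muscle differentiation and fusion genes. On the buccal side 27 of 27 tested were called higher at the cap stage and 28 of 29 at the bell stage. After culture it was 28 of 28. Over all genes, 10.4%, 6.00% and 12.5% were called higher in these comparisons. The median log2 fold changes were 2.84, 2.58 and 3.49, against about 0 over all genes (-0.01, 0.00 and 0.00). Ckm and Tnnc2 were at or under the floor of 3 counts in every library of Cap-L and Cap-B and were not tested at the cap stage. Cav3 was at or under the floor in every Cap-L library. The same held for Tnnc2 in Bell-L and Ckm in Cap-L+2D. A call of such a gene rests on the buccal group and does not support the share. The summed level of the 30 genes was 377 to 386 CPM in Cap-B and 49.5 to 52.8 CPM in Cap-L. It was 1554 to 1595 CPM in Bell-B and 209 to 216 CPM in Bell-L. Cap-B+2D held 6240 to 6608 CPM and Cap-L+2D 542 to 578 CPM. Myh3, the embryonic myosin heavy chain, was at 44.8 ± 3.2 CPM in Cap-B and 2.45 ± 0.12 CPM in Cap-L, a log2 fold change of 4.21 (SE 0.09). Cav3, a muscle caveolin, was at 1.46 ± 0.44 CPM in Cap-B and from 0.0557 to 0.106 CPM in Cap-L, so its fitted log2 fold change of 4.22 (SE 0.41) rests on lingual levels near 0. At the bell stage Myh3 reached 269 ± 7.8 CPM in Bell-B and 17.9 ± 0.57 CPM in Bell-L, and the giant sarcomere protein gene Ttn 143 ± 2.3 and 13.8 ± 0.42 CPM. After culture the largest values belonged to Smpx, at 4.08 (SE 0.20), and to Musk, the receptor kinase of the neuromuscular junction, at 3.96 (SE 0.14).

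Partners and inhibitors of the myogenic factors were mixed. Of this list, 5 of 21 genes tested were called higher and 4 lower in Cap-B than in Cap-L, against 10.4% and 7.10% of all genes. In Bell-B 5 and 2 of 22 were called higher and lower than in Bell-L, against 6.00% and 6.88%. After culture 5 and 5 of 22 were called, against 12.5% of all genes in each direction. Msc (musculin), a repressor found in head muscle progenitors, was at 25.8 ± 1.0 CPM in Bell-B and 5.58 ± 0.70 CPM in Bell-L, a log2 fold change of 2.20 (SE 0.08). It was also called higher at the cap stage, by 2.78 (SE 0.20), and after culture, by 3.23 (SE 0.07). Mstn (myostatin), a brake on muscle growth, was higher by 1.49 (SE 0.32) at the bell stage and by 3.35 (SE 0.15) after culture. Tcf4, an E protein, was higher by 1.28 (SE 0.06) at the cap stage. On the lingual side, Vgll3 was at 100.1 ± 1.2 CPM in Bell-L and 19.8 ± 1.1 CPM in Bell-B, with a log2 fold change of -2.34 (SE 0.04), and at -1.43 (SE 0.06) at the cap stage. Vgll2 and its relative Vgll3 were thus higher on opposite sides at the cap and bell stages. The Id genes code for proteins that take up E proteins: Id2 was lower on the buccal side by a log2 fold change of -0.78 (SE 0.05) at the cap stage and -1.17 (SE 0.04) after culture. Id4 was lower at -0.52 (SE 0.06) at the bell stage, and Id1 at -0.72 (SE 0.05) after culture.

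Of 17 genes of muscle progenitors and head muscle, 7 of 16 tested were called higher and 3 lower in Cap-B than in Cap-L. Over all genes the shares were 10.4% and 7.10%. At the bell stage 10 and 1 of 17 were called higher and lower, against 6.00% and 6.88%. After culture 11 and 2 of 17 were, against 12.5% of all genes in each direction. Tcf21 was at or under the floor in every Cap-L library and passed the filter through Cap-B, so its cap-stage call does not support the share. It ran from 0 to 0.138 CPM in Cap-L+2D and passed through Cap-B+2D, so the same holds for its call after culture. In the fit of the lingual groups alone, 15 of the 17 genes passed the filter. A call of the rest between the sides rests on the buccal group and does not support the share. Isl1, a factor of the branchiomeric muscle lineage, was at 15.3 ± 0.29 CPM in Bell-B and 0.70 ± 0.23 CPM in Bell-L, a log2 fold change of 4.44 (SE 0.13). It was also called higher at the cap stage, at 2.90 (SE 0.17), and after culture, at 3.83 (SE 0.08). Tcf21 (capsulin) was called at the cap stage, at 4.82 (SE 0.61), and after culture, at 4.58 (SE 0.41), from lingual levels near 0. Fgfr4, a receptor of myogenic progenitors, was at 58.9 ± 1.4 CPM in Bell-B and 9.50 ± 0.61 CPM in Bell-L. Genes called lower on the buccal side were Dmrt2 at -1.93 (SE 0.17) and Eya4 at -1.14 (SE 0.06) at the cap stage, Eya4 at -0.59 (SE 0.05) at the bell stage, and Meox2 at -1.58 (SE 0.14) and Dmrt2 at -0.98 (SE 0.21) after culture. Lbx1, a factor of migrating limb muscle progenitors, was at or under the floor of 3 counts in every library of Cap-W, Bell-W and Cap-L. In each of the other groups, Cap-B, Bell-B, Cap-B+2D, Bell-L and Cap-L+2D, it was above the floor in at least 1 library.

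Markers of other cell types also differed between the sides. Over all genes, 10.4% were called higher and 7.10% lower in the buccal part at the cap stage. The shares were 6.00% and 6.88% at the bell stage, and 12.5% in each direction after culture. Of 7 Schwann and glial markers, 6 were called higher and 1 lower in Cap-B than in Cap-L, with summed levels of 62.2 to 67.3 CPM and 29.5 to 30.9 CPM. At the bell stage 4 were called higher and 1 lower, and after culture 3 and 2 of 5 tested. Of 5 bone markers tested, 5 were called lower in Cap-B (445 to 461 CPM against 964 to 983 CPM in Cap-L), and 6 of 6 in Cap-B+2D (562 to 583 CPM against 2311 to 2342 CPM in Cap-L+2D). At the bell stage 1 of 5 bone markers tested was called higher and 1 lower in Bell-B. Of 4 tendon markers, 3 were called lower and 1 higher on the buccal side in each comparison of the sides, with summed levels in Cap-B of 382 to 394 CPM and in Cap-L of 948 to 1027 CPM. In Cap-B+2D, 7 of 8 endothelial markers were called lower than in Cap-L+2D, and the summed level of 8 epithelial markers was 87.2 to 88.2 CPM against 395 to 427 CPM. The epithelial marker Shh was at or under the floor in Cap-B+2D. The summed level of 8 smooth muscle and pericyte markers was 1568 to 1708 CPM in Cap-B+2D and 955 to 1013 CPM in Cap-L+2D, with 3 called higher and 4 lower. Macrophage markers were called lower in Bell-B than in Bell-L for 8 of 9 genes, with summed levels of 194 to 199 CPM and 373 to 379 CPM. The 7 erythroid markers summed to 5437 to 6768 CPM in the bell-stage parts and to at most 40.1 CPM in both cultured groups. Of 4 cartilage markers tested, 4 were called lower in Cap-B than in Cap-L, 2 higher in Bell-B than in Bell-L, and 1 higher and 3 lower in Cap-B+2D than in Cap-L+2D. Of the neuron markers, 1 was called higher and 1 lower in Cap-B, 2 higher in Bell-B and 4 of 5 higher in Cap-B+2D. The part of these cells in the members' results was not tested. The summed dental mesenchyme markers were 3295 to 3304 CPM in Cap-B and 3139 to 3186 CPM in Cap-L.

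Patterns over the 8 groups were compared by the root mean square difference of centred log2 CPM among 23401 genes, as a description. The genes most like Myod1 were Pax7 (0.32), Myog (0.35), Mymx (0.40), Ttn (0.45) and Synpo2l (0.49). Those most like Pax7 were Myod1 (0.32), Myog (0.46), Mymx (0.50), Myh1 (0.66) and Actc1 (0.67). Mef2c had another set of neighbours, A930033H14Rik (0.16), Lingo1 (0.21), Ttyh2 (0.24), Gm45104 (0.25) and Gm45605 (0.27). Among the members, Pax3 was far from all others, from 1.84 to Mef2c up to 2.90 to Pax7, while Myod1, Myog and Mymx were within 0.40 of each other. For Myf6, whose counts were near the floor, the distance depends on the 2 counts added before the logarithm.

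Myf5 and Myf6 are neighbours on chromosome 10 (GRCm39), where the Myf5 gene spans 107318769 to 107321995 and the Myf6 gene 107328714 to 107330598, both on the minus strand and 6718 bases apart. No exon of any member overlaps an exon of another gene in the annotation. Despite their closeness, the pair had unequal levels: in Cap-B+2D, Myf5 had 693, 566 and 629 counts and Myf6 18, 11 and 12. Per kb of exon, Myf5 stood at 2.64 ± 0.07 CPM and Myf6 at 0.41 ± 0.12 CPM in Bell-B.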

How the data were processed

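RNA-seq of dental mesenchyme was analysed from 1 table of raw counts of read pairs per gene, which the authors deposited without normalisation. Per the file headers, featureCounts 2.0.0 counted pairs over exons of an Ensembl release 107 annotation of GRCm39, without strand and without reads mapped to several places or genes. The submitters' processing notes list Trimmomatic 0.39, Bowtie 1.2.3, Subread 2.0.3 and DESeq2 1.40.2. The paper names a stranded kit and the labels another kit.

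Groups came from the labels. The 10 members and the gene lists were chosen with earlier results of these data known. All members are named, as are, from each list of muscle genes, the 2 called genes in each direction with the largest log2 fold change between the sides, and the 5 genes with patterns most like Myod1, Pax7 and Mef2c. Tests were run in R 4.3.3 with edgeR 4.0.16 (TMM, filterByExpr, quasi-likelihood test) over all genes of a comparison's libraries, 9 for groups of the same side and 12 for interactions. The fits were tested on simulated data. No replicate block was used: same-numbered libraries of the groups compared correlated from -0.24 to 0.33 in their deviations, so the numbers were not taken as pairs. Ratios within a library were compared by a two-sided exact permutation test. Alternatives were RLE scaling, DESeq2 1.42.0, no filter, no fold limit, all 24 libraries in 1 fit, the block, 2 counts added to ratios, and each library left out. Libraries held 20581720 to 39266497 counts.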

Additional observations from a re-analysis of the deposited data

Results flagged for a closer look

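Side differences that changed between stages or in culture were singled out because the test of the interaction passed an adjusted p of 0.05 in edgeR. From cap to bell, the buccal over lingual log2 fold change moved by -2.73 for Pax3 and by -2.73 for Pax7. It moved by -1.80 for Myf5, -2.15 for Myod1, -1.53 for Myog, -1.11 for Mymk, -1.87 for Mymx and -3.08 for Vgll2. For Mef2c it moved by 0.47. Pax3 and Mef2c differ from the rest in that their side difference crossed or neared 0: Pax3 went from 0.22 to -2.50, and Mef2c from -0.61 to -0.14. Pax7, Myf5, Mymk, Mymx and Vgll2 had 0 to 5 counts in each Cap-L library, and their values rest on those reads.

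From the cap-stage parts to the cultured parts, the side difference moved by -0.69 for Pax3, -1.49 for Pax7, -1.51 for Myf5 and -1.15 for Myod1, and by 1.37 for Mef2c, whose sides changed order from -0.61 to 0.76.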

How the results depend on the processing

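Among values for single members under an alternative, 1557 kept their direction and their side of the threshold, 19 lost a call, 7 gained one and 6 reversed. Of the counts of called members, 167 stayed within 1.5 times and 5 did not. The replicate block left each count of called members as it was, from 1 in the undivided mesenchyme to 10 in the cultured buccal part over the cap stage. Between the undivided groups the count of 1 became 4 with all 24 libraries in 1 fit and 2 with no filter on low counts, and ran from 1 to 2 with a library left out. For the interaction of side with culture the count of 5 became 3 with all libraries in 1 fit. Values that reversed were small: Pax7 in the cultured over bell lingual part (-0.21 to 0.027 with a library left out), the Myf6 interaction with stage (0.21 with DESeq2, -1.05 to 0.79 with a library left out) and with culture (-0.44 to 1.41), and the Myog interaction with culture (-0.059 to 0.10). With all libraries in 1 fit, the interactions with stage of Myf5 (adjusted p = 0.0912) and Mymk (0.131) and the interactions with culture of Pax3 (0.209) and Myf5 (0.116) lost their calls. DESeq2 lost both Myf5 interactions (adjusted p = 0.0587 and 0.0848). With 2 counts added, the Mymk to Myod1 ratio of the lingual part differed between culture and cap stage by 0.83 in place of 1.03, values that rest on 5 Mymk counts in each Cap-L library and are not read. The cause was not tested. Depth limits Myf6 everywhere and Pax7, Myf5, Mymk, Mymx and Vgll2 in Cap-L and the undivided groups.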
